A study of Mus musculus with 17 samples.

Results

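Natural killer cells (NK), mature cytotoxic lymphocytes of the innate immune system, were compared with lymphoid-primed multipotent progenitors (LMPP), 2 arrays of each. These 4 arrays, of 17 in the series, were chosen by their labelled cell type and not by any measured value. The arrays were Affymetrix Mouse Gene 2.0 ST and covered 9 sorted mouse populations, of which hematopoietic stem cells (HSC), common myeloid progenitors with and without surface Flt3 (flt3+ CMP and flt3- CMP), common lymphoid progenitors (CLP), early innate lymphoid progenitors (EILP), early thymic progenitors (ETP) and DN3 thymocytes give the context, with CLP and ETP also compared with NK at the end. NK and LMPP cells both came from bone marrow, and the same kind of chimera is described for all groups. Marrow of TCF-1 GFP reporter donors had been given to B6 CD45.1 recipients after a lethal dose of 900 rads, and cells were taken after 12 weeks and pooled over mice. The age and sex of the mice, the surface markers of the NK and LMPP sorts and whether cells of the recipients were gated out are not stated in the labels. Nothing in the labels states that the arrays of 1 population came from separate animals. The p-values describe the spread between arrays within a population, estimated over all populations of the series, and it may be technical.

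NK cells kill infected or transformed cells by releasing perforin and granzymes, and they read their targets through paired activating and inhibitory receptors, many of which are encoded together in the NK gene complex. Their development depends on the cytokine IL-15 and on the T-box factors Eomes and T-bet. LMPP are marrow progenitors that have lost most potential for platelets and red cells but still give rise to lymphocytes, granulocytes and macrophages. They carry the receptor Flt3 on their surface and still use many transcription factors of the stem cell.

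Of 22180 genes tested, 1491 differed between NK and LMPP (6.72%) at an adjusted p under 0.05, of which 785 were higher in NK (3.54%) and 706 were lower (3.18%). The difference was at least 2-fold for 865 of them (3.9%), 446 higher and 419 lower in NK. Values are on the log2 scale as deposited, so a difference of 1 is a doubling. Each difference is given as NK minus LMPP with its standard error (SE), over 2 arrays a group. The 15 largest eligible differences in each direction held 8 lectin-like receptors of NK cells on the higher side, and Flt3, Cd34, Dntt and Meis1 on the lower side. The median difference over all genes was 0.05, and the median SE was 0.20. An unadjusted limma p under 0.05 was reached by 4462 of the 22180 genes. Counts of list members by unadjusted p below are to be read against that share.

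**Figure D1:**
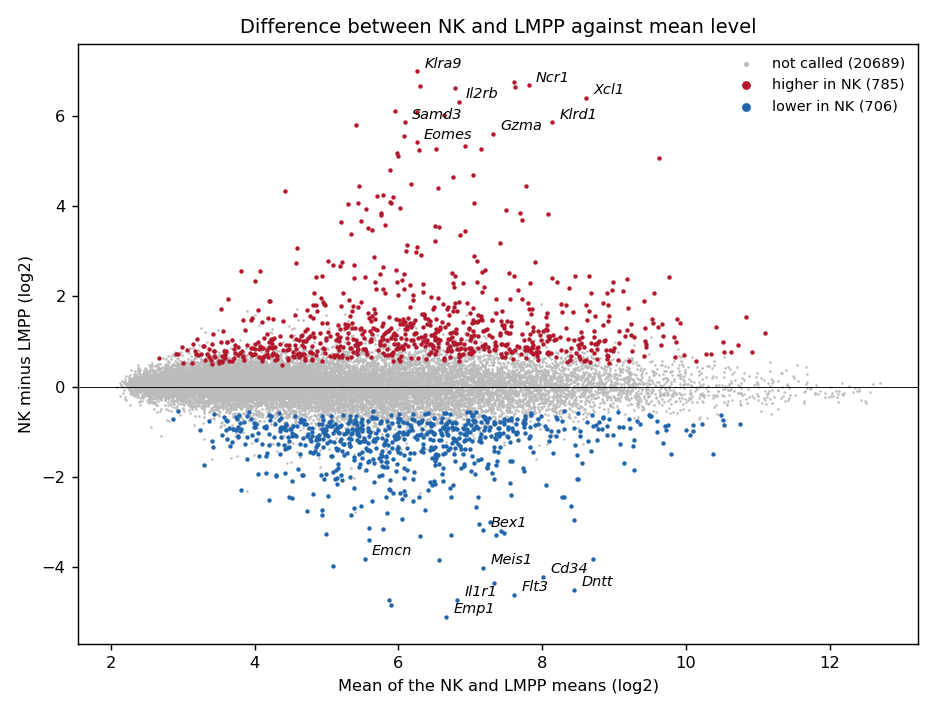
Difference between NK and LMPP (log2, vertical axis) against the mean of the 2 group means (log2, horizontal axis) for 22180 genes, 1 point a gene. The 785 genes called higher in NK reach a difference of 6.99 and the 706 called lower reach -5.10, while the 20689 genes not called lie around 0.

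The labels were checked against defining markers, chosen with earlier results of these data known. All 10 NK markers measured (Ncr1, Klrb1c, Klrk1, Eomes, Tbx21, Gzma, Gzmb, Prf1, Il2rb and Itga2) were higher on both NK arrays than on both LMPP arrays, as were 28.4% of all genes. All 5 LMPP markers measured (Flt3, Kit, Cd34, Meis1 and Hoxa9) were lower on both NK arrays, as were 19.2% of all genes. Flt3 had its highest mean in LMPP (9.92). Cd34 was higher in flt3- CMP (10.56) than in LMPP (10.12), and Meis1 was higher in HSC (10.02) than in LMPP (9.19). The medians of the 4 arrays lay between 4.54 and 4.62, and Pearson's r over all genes (genes do not count as replicates) was 0.977 between the NK arrays, 0.985 between the LMPP arrays and 0.947 to 0.952 between the groups. The NK arrays were the less alike pair, with 541 genes at least 2-fold apart against 236 between the LMPP arrays. Xist, the transcript of the inactive X chromosome, lay between 11.24 and 11.60 on the 4 arrays, and the Y-linked genes Uty, Eif2s3y and Kdm5d lay between 2.75 and 3.68. With 2 arrays a group the precision is limited by their number. A level below 4.54, the median over the whole table, may be background of the array, which leaves the true fold uncertain. In bulk RNA of sorted cells, fewer cells that express a gene and less RNA per cell cannot be told apart.

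The sequences directly upstream of 5 genes are printed here to show what such windows look like. Xcl1, Samd3 and Klrb1b are the 3 largest rises whose window held the Ets letters below, so their matches are part of the choice, and Ncr1 and Flt3 are shown for their defining roles. They are the 250 bases before the first RefSeq start of each gene in build GRCm38.p6, 5′ to 3′ on the strand of the gene. Capitals mark the letters of 3 motifs searched on both strands, GGTGTGA (T-box, the family of Eomes and T-bet), TGTGGTT (Runx) and AGGAAGT (Ets). The motifs do not overlap in these windows.
Xcl1, chr1:164935523-164935772, strand -: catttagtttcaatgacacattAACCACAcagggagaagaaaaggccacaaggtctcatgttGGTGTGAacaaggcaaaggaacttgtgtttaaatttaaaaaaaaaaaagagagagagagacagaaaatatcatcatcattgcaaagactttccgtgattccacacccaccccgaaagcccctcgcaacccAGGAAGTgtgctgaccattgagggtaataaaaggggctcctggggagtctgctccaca
Samd3, chr10:26229457-26229706, strand +: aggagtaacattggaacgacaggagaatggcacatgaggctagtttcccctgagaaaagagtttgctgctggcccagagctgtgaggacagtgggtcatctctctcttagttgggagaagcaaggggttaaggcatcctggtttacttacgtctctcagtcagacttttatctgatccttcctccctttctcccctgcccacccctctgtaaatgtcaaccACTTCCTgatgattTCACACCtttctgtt
Klrb1b, chr6:128826316-128826565, strand -: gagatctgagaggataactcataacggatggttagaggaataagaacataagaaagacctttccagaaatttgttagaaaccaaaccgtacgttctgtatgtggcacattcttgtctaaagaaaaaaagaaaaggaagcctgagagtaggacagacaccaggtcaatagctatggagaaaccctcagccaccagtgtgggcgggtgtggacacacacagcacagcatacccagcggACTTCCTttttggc
Ncr1, chr7:4337465-4337714, strand +: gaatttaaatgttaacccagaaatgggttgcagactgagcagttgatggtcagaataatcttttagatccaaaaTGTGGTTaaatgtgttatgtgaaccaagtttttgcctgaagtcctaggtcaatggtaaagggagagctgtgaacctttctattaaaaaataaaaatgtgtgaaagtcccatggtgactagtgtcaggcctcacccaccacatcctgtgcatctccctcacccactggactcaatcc
Flt3, chr5:147400490-147400739, strand -: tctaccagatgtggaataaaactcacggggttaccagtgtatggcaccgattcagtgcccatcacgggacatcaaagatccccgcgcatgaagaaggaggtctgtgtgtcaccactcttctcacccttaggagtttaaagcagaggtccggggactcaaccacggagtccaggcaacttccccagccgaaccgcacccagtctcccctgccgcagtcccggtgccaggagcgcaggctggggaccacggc
Xcl1 held all 3 motifs, Samd3 the T-box and Ets letters, Klrb1b the Ets letters, Ncr1 the Runx letters and Flt3 none of them. Of the 15 largest rises 11 had a window, and 3 of these held the Ets letters. Of the 15 largest falls all had a window, and 1 held the Ets letters. The Ets letters stood in 14.6% of the 336 windows of genes at least 2-fold higher in NK, in 6.36% of the 330 windows of genes at least 2-fold lower, in 7.61% of the 16990 windows of tested genes and in 7.8% of 27025 windows of all genes. The T-box letters stood in 3.27% of windows of the higher genes, 2.73% of those of the lower genes and 3.17% of those of tested genes. The Runx letters stood in 4.76%, 2.42% and 3.67% of the same windows. A match is a description of these letters and not a binding site.

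Lectin-like receptors had the highest share of members called and the highest median of the 34 lists. Of 17 measured members, all on mouse chromosome 6, 15 were higher in NK and none was lower, with a median difference of 4.48, where 3.54% of all genes were higher. Their mean level was 7.97 and 8.15 on the NK arrays and 3.88 and 3.63 on the LMPP arrays. It was 4.50 in EILP, 4.12 in CLP and between 3.40 and 3.75 in the other 5 populations. Because these genes are close copies of each other, part of a signal may come from a neighbour through cross-hybridisation, which was not tested.

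Klra9, an inhibitory Ly49 receptor for MHC class I, was 9.74 and 9.77 on the NK arrays and 3.09 and 2.44 on the LMPP arrays, a difference of 6.99 ± 0.20 (SE; limma adjusted p = 1.7e-10). This was the largest difference of all genes tested, a fold of 127, with no overlap between groups and an LMPP level below the median of all values. Klrk1 (NKG2D), an activating receptor for stress-induced ligands, was 10.94 and 10.96 in NK against 4.49 and 4.10 in LMPP (6.65 ± 0.22, adjusted p = 4.8e-10). Klrd1, the CD94 chain that pairs with NKG2 proteins, was 11.03 and 11.11 against 5.62 and 4.80 (5.86 ± 0.38, adjusted p = 2.7e-07). Its inhibitory partner Klrc1 rose by 6.03 and its activating partner Klrc2 by 5.79, so both kinds of partner were far higher in NK. Klre1, which pairs with Klri1 or Klri2, rose by 6.74, and those partners rose by 2.73 and 6.67. Klrb1c, the NK1.1 antigen, was 8.23 and 8.60 against 3.69 and 4.17. Klrb1b, whose upstream window is printed above, was 8.59 and 9.13 against 3.57 and 3.01. Klrg1, an inhibitory receptor for cadherins that marks late NK maturation, differed less, at 5.73 and 6.04 against 4.18 and 3.99 (1.80 ± 0.15, adjusted p = 4e-06).

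Klra6 was uneven between the NK arrays, at 3.40 and 5.81 against 2.80 and 2.53 in LMPP (1.93 ± 0.50, adjusted p = 0.035). Without NK replicate 2 its difference was 0.73 with an adjusted p of 0.12. Klra2 (0.80 ± 0.23, adjusted p = 0.057) and Klra17 (-0.14 ± 0.21, adjusted p = 0.79) did not pass, and the mean of Klra2 was 8.38 in CLP and 8.78 in EILP against 6.64 in NK.

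Other activating, adhesion and SLAM family receptors were higher in NK for 13 of 18 members and lower for none, with a median difference of 1.59. Ncr1, the activating receptor NKp46 used to define NK cells, was 11.12 and 11.18 on the NK arrays and 4.73 and 4.22 on the LMPP arrays (6.68 ± 0.20, adjusted p = 1.9e-10). Cd226, which binds the same ligands as the inhibitory receptor Tigit, was 9.59 and 9.02 against 3.14 and 3.31 (6.08 ± 0.26), and Tigit itself was 8.30 and 7.57 against 3.87 on both LMPP arrays (4.06 ± 0.26). For these receptors no NK array came near an LMPP array. Cd2 and Cd7, surface proteins shared with T cells, rose by 5.33 and 5.27. Slamf7 and Slamf6, which bind their own kind on neighbouring blood cells, rose by 4.06 and 3.14, although the other probe set of Slamf6 gave 0.89. Fcgr3, the Fc receptor for antibody-coated targets, was 7.06 and 7.56 against 5.99 and 5.97 (1.33 ± 0.23, adjusted p = 0.0027).

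Some receptors of the same list did not pass. The list held 1 lower member with each array centred on its median, with quantile normalization or with dim genes left out. It held 2 with the replicate number as a block. Cd27, which falls as NK cells mature, was 7.49 and 7.67 in NK and 8.13 and 8.66 in LMPP (-0.82 ± 0.24, adjusted p = 0.061), so that the groups did not overlap but the test was not passed. Lag3 (-0.72), Havcr2 (-0.18), Lair1 (0.06) and Pilrb1 (0.15) also did not pass. The calls of Crtam, Cd160 and Cd244a were not stable. Over the alternative settings their highest adjusted p was 0.14, 0.19 and 0.23.

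Signalling proteins next to these receptors were higher in NK for 13 of 22 members and lower for 1, with a median difference of 1.26. The Tec family kinase Txk was 7.83 and 8.73 in NK and 3.76 and 3.18 in LMPP (4.81 ± 0.25, adjusted p = 3.1e-08). The adaptors Sh2d1a (SAP) and Sh2d1b1 (EAT-2), which carry signals from SLAM receptors, rose by 3.51 and 3.38, and the kinases Fyn and Zap70 by 2.10 and 1.80. The adaptor chains that NK receptors need at the membrane were already high in LMPP. Tyrobp (DAP12) was 11.53 and 11.86 against 10.46 and 10.53, Fcer1g was 10.91 and 11.25 against 9.75 and 9.74, and Hcst (DAP10) was 10.25 and 10.99 against 9.26 and 9.15. Their differences of 1.20, 1.33 and 1.41 passed the test but were small beside those of the receptors. The phospholipase Plcg1 was the member that fell, by 1.52 (SE 0.28, adjusted p = 0.0048), whereas Plcg2 (-0.27), Syk (0.16) and Vav1 (-0.07) did not pass.

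**Figure D2:**
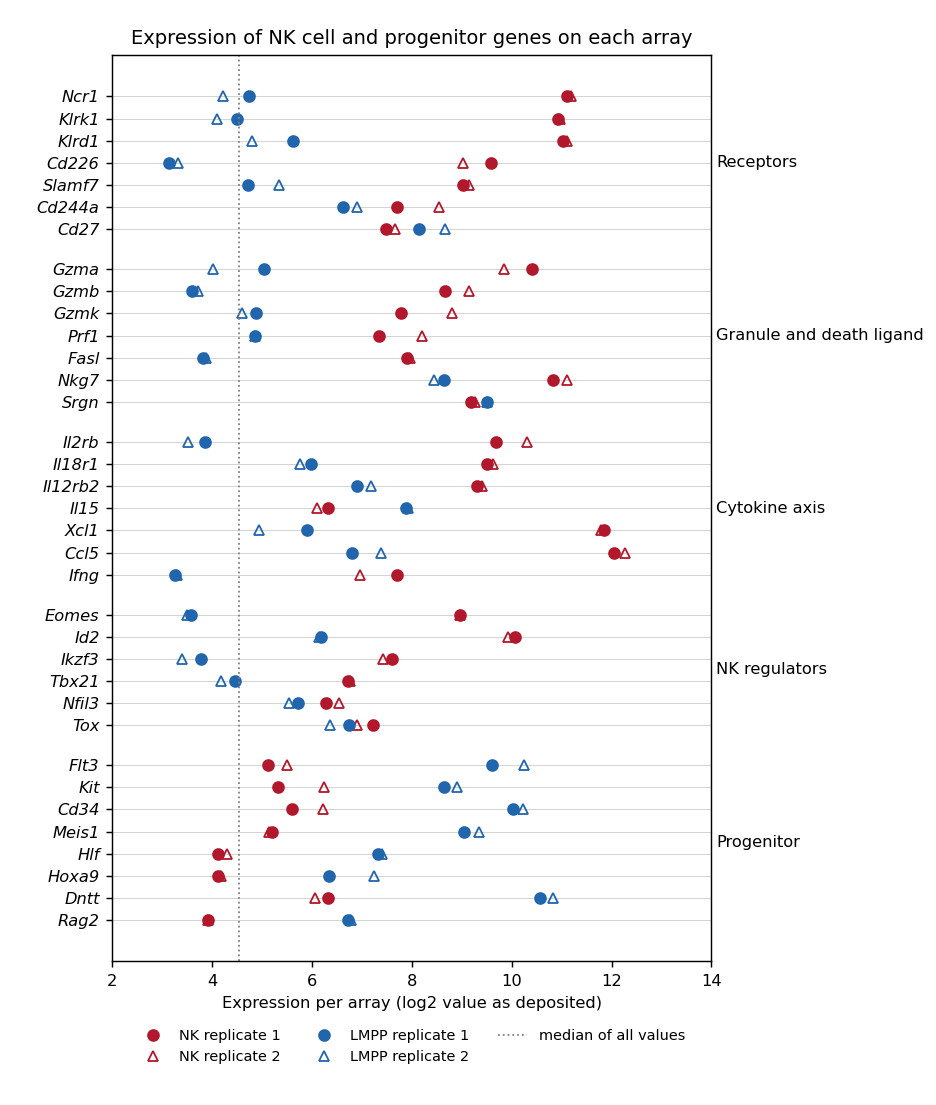
Log2 value as deposited (horizontal axis) of 35 genes on the 2 NK arrays (red) and the 2 LMPP arrays (blue), with replicate 1 as filled circles and replicate 2 as open triangles, and the median of all values (4.54) as a dotted line. Ncr1 lies above 11 in NK and below 5 in LMPP, Srgn differs by -0.28, and Flt3 lies at 5.12 and 5.50 in NK and at 9.61 and 10.24 in LMPP.

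Genes of the cytotoxic granule and death ligands were higher in NK for 12 of 17 members and lower for none, with a median difference of 2.37. Gzma, which encodes granzyme A, was 10.40 and 9.84 in NK and 5.03 and 4.01 in LMPP (5.60 ± 0.32, adjusted p = 7.3e-08). Gzmb was 8.66 and 9.14 against 3.60 and 3.73 (5.24 ± 0.31), and Gzmk was 7.78 and 8.81 against 4.88 and 4.59 (3.56 ± 0.25). Perforin, the pore-forming protein encoded by Prf1, was 7.35 and 8.20 against 4.85 and 4.86 (2.92 ± 0.23, adjusted p = 2.6e-06). No NK array overlapped an LMPP array for any of these 4 genes. Fasl, a death ligand, was 7.89 and 7.96 against 3.81 and 3.88 (4.09 ± 0.15). The granzyme B inhibitor Serpinb9 rose by 2.37, the granule protein Nkg7 by 2.43 from an LMPP level of 8.55, and cathepsin W (Ctsw) by 4.45. The granule proteoglycan serglycin (Srgn) was 9.19 and 9.27 against 9.51 and 9.50 (-0.28 ± 0.13, adjusted p = 0.26), and the death ligand Tnfsf10 (TRAIL) had a difference of -0.67 with overlapping arrays.

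The machinery that docks and releases granules was higher for 2 of 12 members, Lyst (0.93 ± 0.20, adjusted p = 0.013) and Was (0.70 ± 0.17, adjusted p = 0.021), with a median of 0.50. Rab27a (0.75), Unc13d (0.49), Stx11 (0.74) and Stxbp2 (0.05), all known from inherited defects of killing in people, did not pass. The list held no call when only the NK and LMPP arrays were fitted, or without NK replicate 2, LMPP replicate 1 or LMPP replicate 2.

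Secreted mediators were higher in NK for 7 of 17 members and lower for none, with a median of 0.47. Xcl1, a chemokine that attracts cross-presenting dendritic cells, was 11.84 and 11.78 in NK and 5.89 and 4.94 in LMPP (6.40 ± 0.30, adjusted p = 1.3e-08). Ccl5 was 12.06 and 12.27 against 6.80 and 7.39 (5.06 ± 0.38), and interferon gamma (Ifng) was 7.70 and 6.96 against 3.25 and 3.30 (4.05 ± 0.23). All 3 were far above both LMPP arrays. Ccl4 rose by 2.75, and the growth factor Csf2 (GM-CSF) by 1.46. The calls of Ccl3 (2.13) and Ltb (1.06) were lost in some settings, with a highest adjusted p of 0.18 and 0.16. Tnf was 6.13 and 7.04 against 6.35 and 6.74, with overlap, and the cytokines of other innate lymphoid cells Il4, Il13, Il17a and Il22 lay between 2.06 and 4.64 on all 4 arrays.

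Cytokine receptors and their signalling proteins were higher for 8 of 21 members and lower for 1, with a median of 0.46. Il2rb, the shared chain through which NK cells receive IL-15, was 9.68 and 10.32 in NK and 3.85 and 3.52 in LMPP (6.31 ± 0.22, adjusted p = 4.8e-10). Il18r1 was 9.50 and 9.63 against 5.99 and 5.75 (3.70 ± 0.16), and Il12rb2 was 9.31 and 9.40 against 6.90 and 7.19 (2.31 ± 0.20). Chains of the receptors for IL-15, IL-18 and IL-12 were thus higher in NK, whereas the other chains Il12rb1 (0.30) and Il15ra (0.22) did not pass. Il7r, the IL-7 receptor of lymphoid progenitors, was 8.22 and 8.10 against 6.65 and 6.76 (1.45 ± 0.28, adjusted p = 0.0053). The kinase Jak1 rose by 1.49. The ligand Il15 was the member that fell, with 6.31 and 6.09 in NK and 7.87 and 7.92 in LMPP (-1.70 ± 0.32, adjusted p = 0.0051). The IL-2 receptor gamma chain and Jak3 were not analysed here, since they had no probe set with 1 gene symbol.

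Transcription factors of NK cells were higher for 14 of 23 members and lower for none, with a median of 1.10, and 9 were higher when only the NK and LMPP arrays were fitted. Eomes was 8.96 and 8.97 in NK and 3.58 and 3.50 in LMPP (5.42 ± 0.22, adjusted p = 3e-09). The related factor T-bet (Tbx21) was 6.73 and 6.76 against 4.46 and 4.17 (2.43 ± 0.16, adjusted p = 2.6e-07). Both lay below the median of all values in LMPP. Id2, which blocks E proteins in innate lymphocytes, was 10.07 and 9.92 against 6.18 and 6.14 (3.84 ± 0.23, adjusted p = 1.4e-07), and the Ikaros family member Ikzf3 (Aiolos) was 7.61 and 7.41 against 3.77 and 3.40 (3.93 ± 0.28). Bhlhe40 rose by 2.49, Ets1 by 1.58, Stat4, which acts below the IL-12 receptor, by 1.50, and Prdm1 (Blimp-1) by 1.24. Maf rose by 3.47, with a larger SE of 0.67, and its other probe set gave 1.10.

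Several factors with a known part in NK development did not pass. Nfil3 was 6.29 and 6.54 against 5.72 and 5.55 (0.78 ± 0.27, adjusted p = 0.11), Runx3 was 6.61 and 6.87 against 5.88 and 6.15 (0.72 ± 0.26, adjusted p = 0.13) and Tox was 7.23 and 6.91 against 6.75 and 6.36 (0.51 ± 0.25, adjusted p = 0.28). In each of them the NK arrays were above the LMPP arrays without overlap, as in 28.4% of all genes. Gata3 (0.82), Tox2 (0.18) and Irf2 (-0.09) did not pass either. The calls of Smad3 and Rora had a highest adjusted p of 0.19 and 0.095 over the settings.

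Homing and adhesion genes were higher for 13 of 25 members and lower for none, with a median of 0.93, and 8 were higher when only the NK and LMPP arrays were fitted. Itga2, the DX5 integrin chain used to identify NK cells, was 8.95 and 9.21 in NK and 4.21 and 4.67 in LMPP (4.64 ± 0.20, adjusted p = 5.2e-09). Itgax (CD11c), an integrin chain of NK and dendritic cells, rose by 4.20 (SE 0.19), with no overlap. The chemokine receptor Ccr2 rose by 2.45, Itgal, the LFA-1 chain that holds the target cell, by 2.29, its partner Itgb2 by 1.83, Itgb1 by 1.81 and S1pr1, which guides exit from lymphoid organs, by 1.76. S1pr5, which guides exit of mature NK cells from marrow, was 5.80 and 5.01 against 5.54 and 5.35 (-0.04 ± 0.26), and Cx3cr1 was 6.93 and 7.27 against 7.10 and 6.77 (0.16 ± 0.22), both with overlap. The calls of Itgam (CD11b, 0.79) and Cxcr6 (0.93) had a highest adjusted p of 0.16 and 0.33 over the settings.

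On the progenitor side, stem cell and multipotent transcription factors were lower in NK for 16 of 30 members and higher for 1, with a median of -0.90, where 3.18% of all genes were lower. Meis1, a Hox cofactor of stem cells, was 5.20 and 5.14 in NK and 9.04 and 9.34 in LMPP (-4.02 ± 0.19, adjusted p = 1.3e-08). The Ets factor Erg was 6.08 and 5.61 against 9.18 and 9.01 (-3.25 ± 0.20), and Hlf was 4.12 and 4.29 against 7.31 and 7.41 (-3.15 ± 0.21). Hoxa9, which acts with Meis1, was 4.13 and 4.17 against 6.34 and 7.25 (-2.65 ± 0.27, adjusted p = 3e-05). The LMPP arrays were above both NK arrays for each of these 4. Sox4 (-2.64), Etv6 (-2.44), Bcl11a (-2.40), Mecom (-1.96), Msi2, an RNA-binding protein of stem cells (-1.50), and Myb (-0.99) were also lower. The member that rose was Zfpm1 (FOG-1), a cofactor of Gata proteins, at 6.41 and 6.47 against 5.42 and 5.28 (1.08 ± 0.21, adjusted p = 0.0053, but 0.054 without LMPP replicate 2). Runx1 (-0.24), Tal1 (-0.19) and Gfi1b (0.20) had overlapping arrays.

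Surface proteins and receptors of progenitors were lower for 13 of 26 members and higher for 1, with a median of -0.82. Flt3, the receptor by which LMPP are defined, was 5.12 and 5.50 in NK and 9.61 and 10.24 in LMPP (-4.62 ± 0.35, adjusted p = 1.5e-06), a fold of 24.5. Kit, the stem cell factor receptor, was 5.32 and 6.23 against 8.64 and 8.91 (adjusted p = 5.6e-06), and Cd34 was 5.60 and 6.23 against 10.02 and 10.22 (-4.21 ± 0.31). Emp1, a small membrane protein, had the largest fall of all genes tested, at 4.24 and 3.99 against 9.34 and 9.08 (-5.10 ± 0.53, adjusted p = 3.6e-05), and its other probe set gave -1.55. Among other surface proteins, Adgrl4 (-3.83), Emcn (-3.81), Adgrg1 (-3.28) and the mucin Muc13 (-3.19), separated the groups without overlap. Angpt1, a ligand of the Tek receptor, fell by 2.96, while its other probe set gave -1.12 and did not pass when all probe sets were tested. The C1q-receptor-like protein Cd93 fell by 1.74. The member that rose was Ctla2b, at 9.46 and 9.82 against 8.07 and 8.31 (1.46 ± 0.34, adjusted p = 0.02), a call lost without NK replicate 2, LMPP replicate 1 or LMPP replicate 2, with a highest adjusted p of 0.13.

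The list of the 15 largest falls held genes of other kinds too. Gprasp2, a sorting protein for receptors, was 3.44 and 3.55 in NK and 8.38 and 8.09 in LMPP (-4.74 ± 0.29), and its other probe set gave -2.14. Il1r1, the IL-1 receptor, was 4.34 and 4.58 against 9.18 on both LMPP arrays (-4.72 ± 0.31, adjusted p = 3.2e-07). Myl10 (-3.28), Tnip3 (-3.27) and Bex1 (-3.18) had LMPP levels of 8.38, 6.63 and 8.77. On the higher side Samd3, printed above with its window, was 8.88 and 9.15 in NK and 3.10 and 3.22 in LMPP (5.86 ± 0.18, adjusted p = 2.1e-10).

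Genes of lymphoid priming did not move as a block, with 3 of 14 lower, 2 higher and a median of -0.31. Dntt, which adds bases at antigen receptor joints, was 6.33 and 6.06 in NK and 10.56 and 10.83 in LMPP (-4.50 ± 0.28, adjusted p = 1.8e-07). Rag2, part of the enzyme that cuts antigen receptor genes, was 3.93 and 3.91 against 6.73 and 6.78 (-2.83 ± 0.26, adjusted p = 9.6e-06). Both were well separated, and Flt3 was the other lower member. Ikzf1 (0.39), Satb1 (-0.42), Notch1 (-0.45) and Tcf3 (0.24) did not pass, and the members that rose were Il7r and Jchain (0.95 ± 0.22, adjusted p = 0.02). Only 1 rose without NK replicate 1, LMPP replicate 1 or LMPP replicate 2.

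**Figure D3:**
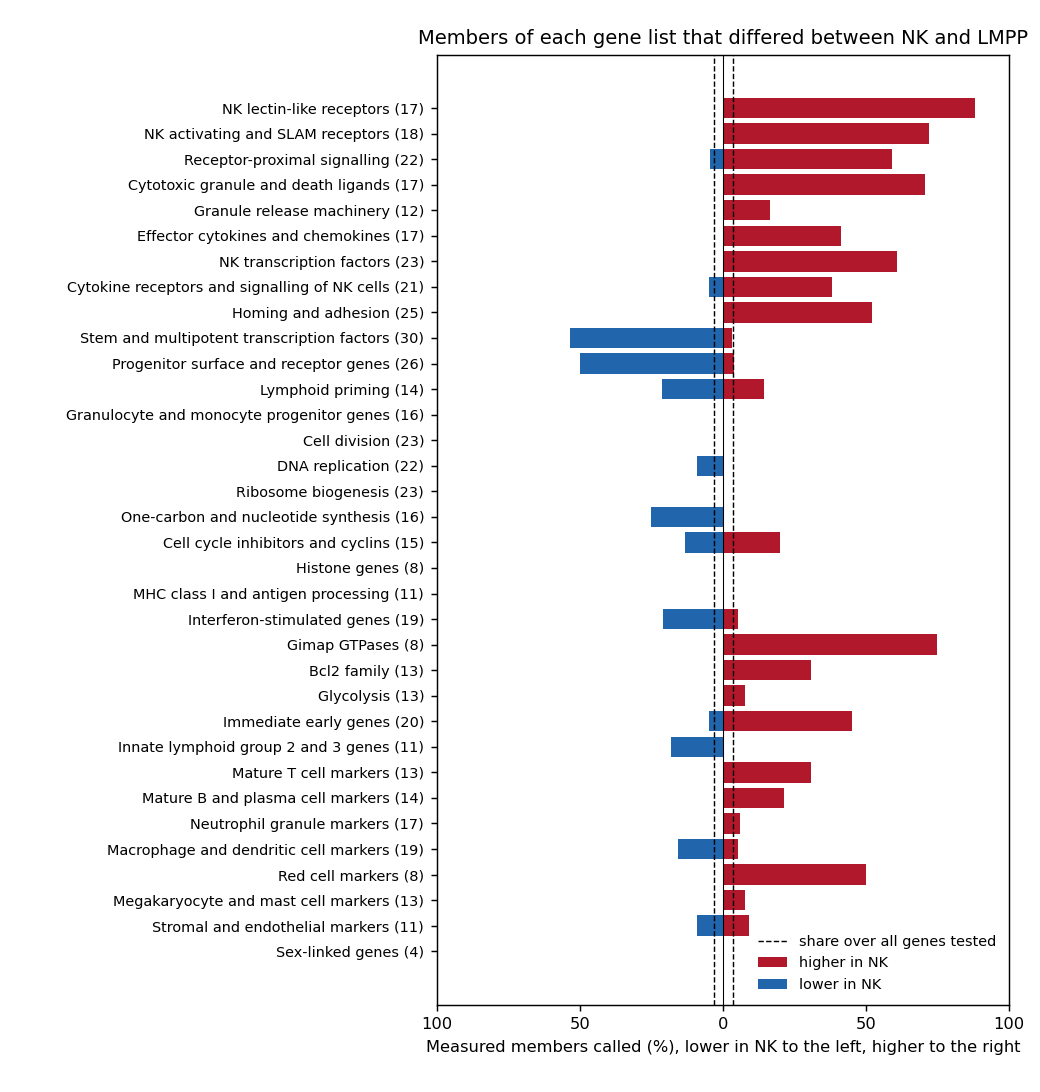
Percent of the measured members of each list (number in brackets) called higher in NK (red, to the right) or lower in NK (blue, to the left), with dashed lines at the share of all genes called in that direction (3.54% higher, 3.18% lower). The NK lectin-like receptors reach 15 of 17 to the right, and stem and multipotent transcription factors 16 of 30 to the left.

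Genes of cell division gave no call in either direction among 23 members, with a median of -0.21. An unadjusted p under 0.05 was reached by 5 members, and by 4462 of all 22180 genes. With quantile normalization 2 members were called lower. Their mean level was 8.28 and 8.43 in NK and 8.31 and 8.57 in LMPP, which overlap. Mki67, a marker of cycling cells, was 10.44 and 10.56 against 10.20 and 10.32 (0.24 ± 0.15, adjusted p = 0.4), and the topoisomerase Top2a was 10.04 and 10.23 against 10.24 and 10.48 (-0.22 ± 0.16, adjusted p = 0.5). Of 22 DNA replication genes 2 fell, the GINS subunit Gins2 (-0.78) and the primase subunit Prim1 (-0.76), with a highest adjusted p over the settings of 0.16 and 0.28. The count of lower members was 0 without LMPP replicate 1 or LMPP replicate 2, 1 without NK replicate 1 and 5 without NK replicate 2. The 23 ribosome biogenesis genes held no call, a median of -0.23 and 5 members with an unadjusted p under 0.05. With quantile normalization 1 of them was called lower.

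Among regulators of the cell cycle, the kinase Cdk6 fell by 1.08 (8.26 and 8.46 in NK, 9.38 and 9.50 in LMPP, adjusted p = 0.0035) and its cyclin Ccnd1 fell by 1.08 (4.49 and 4.23 against 5.66 and 5.22). The call of Ccnd1 was lost with only the 4 arrays, without NK replicate 2 and without LMPP replicate 1. The pocket protein Rbl2, a brake on E2F factors, was 8.58 and 8.72 against 7.60 and 7.44 (1.13 ± 0.18, adjusted p = 0.0013). The cyclin Ccnd2 rose by 1.03, with a highest adjusted p of 0.27 over the settings. In this list of 15, where 3 rose and 2 fell, 1 rose and 1 fell without NK replicate 2 or LMPP replicate 1. The 2 probe sets of Rb1 went in opposite directions (0.67 and -1.17), so no direction is given for it. Of 16 genes of one-carbon and nucleotide synthesis, 4 fell and none rose. These were Gart (-0.94), Umps (-0.75), Ctps (-0.73) and Paics (-0.67), which make purines or pyrimidines. The calls were close to the threshold, with a highest adjusted p over the settings between 0.062 for Gart and 0.21 for Ctps. Without NK replicate 2 the count was 2, and without any other of the 4 arrays it was 1. Myc fell by 0.72 (SE 0.15, adjusted p = 0.011), a call lost with only the 4 arrays, without NK replicate 2 and without LMPP replicate 2, with a highest adjusted p of 0.087.

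Immediate early genes, which are switched on within minutes of a stimulus, were higher in NK for 9 of 20 members and lower for 1, with a median of 1.01. Btg2 was 9.66 and 10.21 in NK and 7.91 and 7.81 in LMPP (2.08 ± 0.29, adjusted p = 0.00056). The nuclear receptors Nr4a2 and Nr4a3 rose by 1.56 and 1.50, Fosb by 1.40, the NF-kappaB inhibitor Nfkbia by 1.15 and Egr2 by 1.13. Fos (0.95), Jun (0.83) and Egr1 (1.08) did not pass, and Ier3 fell by 1.47. Without LMPP replicate 2 the list held 5 higher members.

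Small GTPases of the Gimap family, which act in lymphocyte survival, were higher for 6 of 8 members and lower for none, with a median of 1.94. Gimap4 was 9.06 and 9.73 in NK and 4.82 and 4.57 in LMPP (4.70 ± 0.22, adjusted p = 1.3e-08), and Gimap3 was 8.15 and 8.51 against 4.78 and 4.80 (3.54 ± 0.29). Gimap1 (0.55) and Gimap6 (0.58) did not pass. In the Bcl2 family 4 of 13 rose and none fell. The death promoters Bcl2l11 (Bim, 1.50 ± 0.19, adjusted p = 0.00016) and Bak1 (0.91) were among them together with the survival genes Bcl2a1a (1.39) and Bcl2 (0.79). The calls of Bak1 and Bcl2 had a highest adjusted p of 0.23 and 0.31 over the settings. Without NK replicate 1 the family held 1 higher member, and without any other of the 4 arrays it held 2.

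Interferon-stimulated genes were lower in NK for 4 of 19 members and higher for 1, with a median of -0.10, and no member was called lower when only the NK and LMPP arrays were fitted. The higher member, Igtp (0.78), lost its call in 10 of the 12 alternatives, with a highest adjusted p of 0.3. Lower members numbered 2 without NK replicate 1 or LMPP replicate 1, and 1 without LMPP replicate 2. Oas2, an antiviral sensor of double-stranded RNA, was 5.67 and 5.68 against 6.83 and 7.83 (-1.65 ± 0.26, adjusted p = 0.0014). The 11 genes of MHC class I and antigen processing held no call and 1 member with an unadjusted p under 0.05, although 2 were higher without NK replicate 1 and 1 was lower without NK replicate 2. Their light chain B2m lay between 12.56 and 12.66 on all 4 arrays. Glycolysis genes gave 1 call of 13, the phosphofructokinase Pfkp (1.22 ± 0.30, adjusted p = 0.025). That call was lost with only the 4 arrays and without NK replicate 2, LMPP replicate 1 or LMPP replicate 2, with a highest adjusted p of 0.2, and 1 member was lower without NK replicate 2. The 8 histone genes held no call and 1 member with an unadjusted p under 0.05.

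Markers of other blood cells were read beside these groups. Of 13 markers of mature T cells, 4 were higher in NK and none was lower, with a mean level of 4.96 and 5.04 on the NK arrays and 4.10 and 3.96 on the LMPP arrays. Cd3g was 7.55 and 7.80 against 3.36 and 3.10 (4.44 ± 0.27), Cd3d was 8.09 and 8.16 against 5.10 and 4.70 (3.23 ± 0.36), and Cd3e was 4.43 and 4.56 against 3.29 and 3.21 (1.25 ± 0.25, adjusted p = 0.0072, with a highest of 0.058 without NK replicate 2 or LMPP replicate 2). Cd28 was the other higher member, and its call was kept wherever it was tested. Cd4, Cd8a, Cd5, Cd6, Themis and Bcl11b, which also mark T cells, lay between 3.10 and 5.15 on all 4 arrays and did not pass. For comparison, the mean Cd3e level in DN3 thymocytes was 10.11 and that of Cd3g 11.64. The part of T cells in the NK values was not tested further.

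Neutrophil granule transcripts were high in both groups. Their mean level over 17 genes was 9.19 and 9.47 in NK and 9.01 and 8.83 in LMPP, against 4.79 in ETP and 4.28 in DN3. S100a8 lay between 12.34 and 12.50 on the 4 arrays, and Camp between 11.13 and 11.57. Itgb2l was the 1 member called (0.88 ± 0.19, adjusted p = 0.013), and without NK replicate 2, LMPP replicate 1 or LMPP replicate 2 none was, with a highest adjusted p of 0.093. The 16 genes of granulocyte and monocyte progenitors held no call and 4 members with an unadjusted p under 0.05. With the mean of the probe sets of a gene 1 was called higher, and 1 with the replicate number as a block. Red cell markers were higher in NK for 4 of 8 members and lower for none, with a mean level of 6.70 and 6.66 in NK and 5.87 and 5.61 in LMPP. Ermap (1.91), the Rh-associated protein Rhag (1.72), the band 3 anion exchanger Slc4a1 (1.29) and the carbonic anhydrase Car1 (0.99) were the members, and 2 were called without NK replicate 2 or LMPP replicate 2. The part of these cells in the results above was not tested.

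B and plasma cell markers were higher for 3 of 14 (Jchain 0.95, Cd22 0.89 and Ms4a1 0.84) and lower for none, while Pax5 (0.03) and Cd79b (-0.04) had overlapping arrays. Their mean level was 4.83 and 4.94 in NK and 4.61 and 4.41 in LMPP, and the count was 1 without LMPP replicate 1 and 0 without LMPP replicate 2. Macrophage and dendritic cell markers were higher for 1 of 19 and lower for 3 (Flt3, Spic and Cd163), with 1 lower without NK replicate 1 or LMPP replicate 2, and the megakaryocyte and mast cell list held 1 call of 13, the chymase Cma1 (1.48 ± 0.28), which was lost without LMPP replicate 2. Stromal and endothelial markers gave Col1a1 (0.66) as higher and Pecam1 (-0.79) as lower among 11. With only the 4 arrays, without NK replicate 1 and without LMPP replicate 2 neither was called, and their highest adjusted p was 0.26 and 0.11. Of 11 genes of group 2 and 3 innate lymphoid cells, none was higher (1 without NK replicate 1) and 2 were lower, Kit and Il1r1, both described above. The mean of that list was 4.36 and 4.53 in NK and 4.89 and 4.97 in LMPP. Il23r, a receptor chain of group 3 cells, lay between 2.68 and 2.99 on the 4 arrays.

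To see where the difference was shared with other lymphoid populations, the same NK arrays were compared with CLP, the next lymphoid progenitor in marrow, and with ETP, the first progenitor in the thymus. NK differed from CLP in 1418 genes (6.39%), 715 higher (3.22%) and 703 lower (3.17%), and from ETP in 2490 genes (11.2%), 1470 higher (6.63%) and 1020 lower (4.6%). These comparisons share the NK arrays with the main one, so the values are set side by side and no overlap is drawn. With each array centred on its median the NK and CLP split was 463 higher and 1172 lower. The CLP arrays also differed in sex-linked genes, with an NK minus CLP difference of -5.44 for Eif2s3y and 2.10 for Xist. Eif2s3y had a mean of 8.65 in CLP, 8.56 in EILP and 8.15 in DN3, against 3.18 to 3.53 in the other 6 populations. The part of sex in the comparison with CLP was not tested.

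For the 15 largest rises against LMPP, the NK minus CLP difference was 4.18 to 7.04 and the NK minus ETP difference 4.09 to 6.94, values that rest on the same NK arrays by which these genes were chosen. Some of them lay above 4.54 in another population. Xcl1 was 7.09 and Klrk1 6.17 on the 1 EILP array, against 11.81 and 10.95 in NK. Gzma was 9.16 in DN3 thymocytes against 10.12 in NK, and Klrd1 was 6.98 in ETP and 6.47 in CLP against 11.07 in NK.

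Other NK genes were already high in 1 of these progenitors. Slamf7 was 8.79 in CLP and 9.09 in NK (NK minus CLP 0.29 ± 0.35, adjusted p = 0.68), and Slamf6 was 7.79 and 7.69 (-0.10 ± 0.24, adjusted p = 0.85). The same held for Fcgr3 (7.42 and 7.31), Fcer1g (10.79 and 11.08) and the integrin chain Itgb2 (9.25 and 9.18), each with no call between NK and CLP. Fasl was 7.87 in ETP and 7.93 in NK (NK minus ETP 0.05 ± 0.15, adjusted p = 0.89) but lay between 3.73 and 3.90 in the other 7 populations. Il7r was lower in NK than in CLP (8.16 and 9.71, adjusted p = 0.0037). Tox was 7.07 in NK and 4.65 in CLP (2.42 ± 0.25, adjusted p = 4.3e-05), and it was lower in NK than in ETP (8.13, adjusted p = 0.014).

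**Figure D4:**
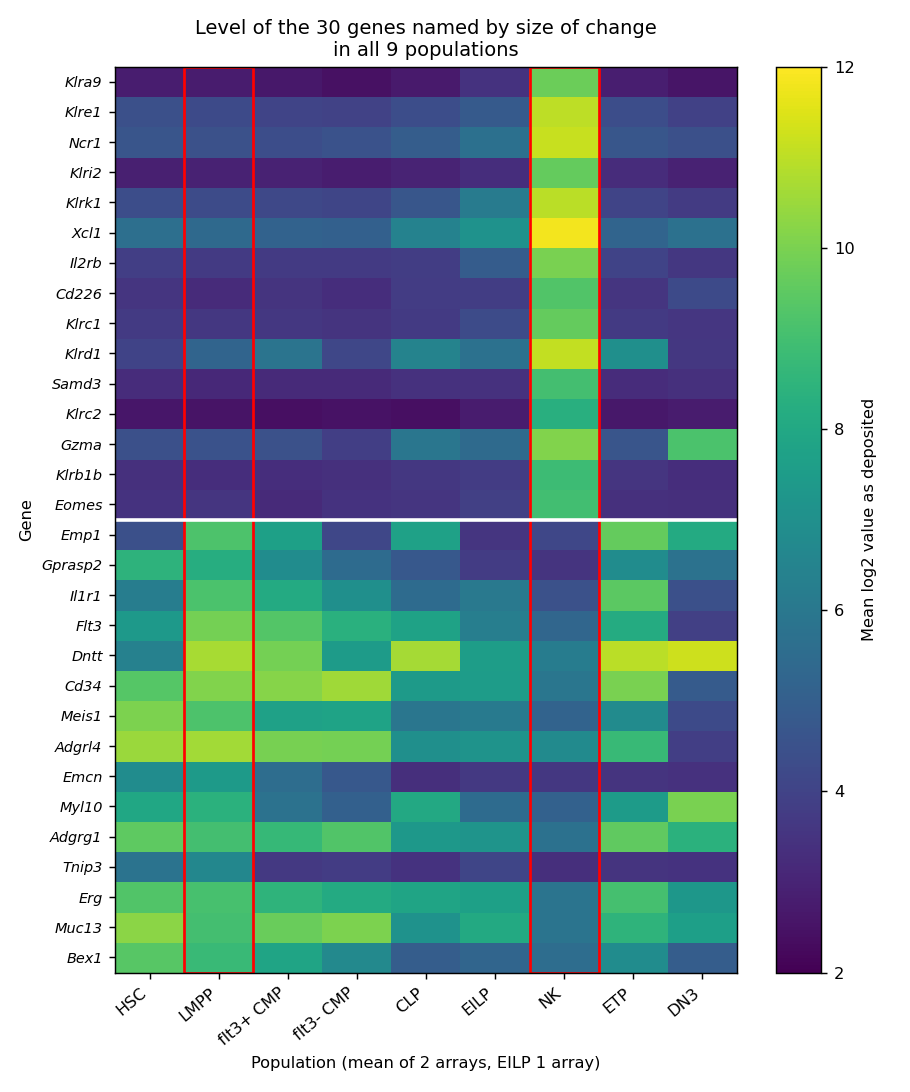
Mean log2 value as deposited (colour) of the 15 largest rises (above the white line) and the 15 largest falls (below it) in all 9 populations, with LMPP and NK boxed in red. The upper genes have their highest mean in NK, such as Eomes at 8.96 against at most 3.89 elsewhere, although Gzma reaches 9.16 in DN3 against 10.12 in NK. Lower genes are often high in several progenitors, such as Cd34 at 10.56 in flt3- CMP.

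Progenitor genes differed in how far they set NK apart from CLP and ETP. Emcn was 3.63 in NK and 3.33 in CLP (adjusted p = 0.66), Tnip3 was 3.36 and 3.45 (adjusted p = 0.87), Hlf was 4.21 and 4.24 (adjusted p = 0.95) and Mecom was 3.32 and 3.50 (adjusted p = 0.63). For these genes NK did not differ from CLP or from ETP by the test, whereas their HSC and LMPP means lay between 5.28 and 7.60. Meis1 (NK minus CLP -0.76), Cd34 (-1.52), Erg (-2.00) and Flt3 (-2.45) were lower in NK than in CLP as well. Dntt was as far below CLP (-4.47 ± 0.28, adjusted p = 2.1e-07) as below LMPP. Adgrl4 and Bex1 did not differ from CLP by the test (adjusted p = 0.62 and 0.19) but were lower in NK than in ETP (-1.95 and -1.27). ETP had high levels of Kit (9.16), Il1r1 (9.46), Cd34 and Adgrg1 (9.55), each of them lower in NK.

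Cell division genes, which had no call against LMPP, were higher in NK than in ETP for 21 of 23 and lower in NK than in CLP for 10 of 23. Their mean level was 8.36 in NK, 8.44 in LMPP, 8.05 in HSC, 9.07 in CLP and 6.98 in ETP. Neutrophil granule transcripts had a mean level of 9.33 in NK, 8.92 in LMPP, 10.27 in CLP and 4.79 in ETP, with 17 of 17 higher in NK than in ETP and 9 of 17 lower in NK than in CLP. Red cell markers were higher in NK than in ETP for 4 of 8 and not called against CLP for any. The part of these transcripts in the comparisons with CLP and ETP was not tested.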

How the data were processed

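RNA of sorted cells was extracted with Trizol, amplified with a NuGEN Pico V2 kit and hybridised to Affymetrix Mouse Gene 2.0 ST arrays, per the labels. The authors deposited log2 values for 41345 probe sets on 17 arrays. Per the submitters' processing notes they were made with Affymetrix Expression Console. Its version, background correction and summary method are not stated in the labels. The log2 unit was read from the values, and no pseudocount or filter was applied.

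Names came from GEO's platform annotation. The 23521 probe sets with a single gene symbol were used (1814 others had several symbols and 16010 had no symbol), and 1082 genes with several probe sets were represented by the one with the highest mean level, leaving 22180 genes. A mean for each population was fitted over the 17 arrays (limma 3.58.1, R 4.3.3), with moderated variances (residual degrees of freedom 8, prior 5.33), so that all populations share 1 estimate of the spread. EILP, with 1 array, is assumed to vary like the others. Genes were called where the two-sided p, adjusted by Benjamini-Hochberg across all genes of a comparison, was under 0.05. On simulated data of this design, 100 genes were changed at each size. The fit recovered 67% of log2 changes of 1 and 99% of log2 changes of 2, with 5 false calls. The simulated noise was normal, with 1 fitted spread per gene for all populations. It could therefore not test that assumption, and the NK arrays were less alike than the LMPP arrays.

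Named genes were the 15 largest called differences in each direction of at least 2-fold without overlap between the arrays, without predicted genes, antigen receptor segments, pseudogenes or small RNAs (417 higher and 357 lower genes were eligible), and members of 34 lists, of which 544 of 606 genes were measured. Members and lists were chosen with earlier results of these data known, and no list was tested. Same-numbered replicates were not paired. The correlation between NK and LMPP of their replicate 1 minus replicate 2 differences across genes was 0.085, and no label gives a shared batch. Upstream sequences and microRNAs are from RefSeq, with 16990 of 22180 genes matched. Alternatives were centring or quantile normalization, leaving out dim genes, mean or all probe sets, fewer populations, an intensity trend with robust prior, a replicate block, and leaving out each array.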

Additional observations from a re-analysis of the deposited data

How the results depend on the processing

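Called genes numbered 1491 in NK minus LMPP, and 693 when only these 4 arrays were fitted. Without 1 array in turn they numbered 810 to 1423, and the counts without LMPP replicate 1 (845), LMPP replicate 2 (810) and NK replicate 2 (988) were more than 1.5 times below it. Fitting only the groups compared gave 564 genes for NK minus CLP (1418) and 1049 for NK minus ETP (2490). Without 1 array they numbered 740 to 1164 and 1701 to 2231, with 748 without CLP replicate 1 and 740 without CLP replicate 2. These fits hold fewer arrays, and a population left with 1 array is assumed to vary like the others. Centring each array on its median moved the median difference of all genes in NK minus CLP from 0.09 to -0.05 and its split from 715 higher and 703 lower to 463 and 1172. For NK minus LMPP the split was 689 higher and 779 lower after centring and 763 and 815 after quantile normalization. With the replicate number as a block 1518 genes were called in NK minus LMPP. The labels do not say that numbers pair arrays, and Smad3, Igtp and Bcl2 lost their calls there. Rb1 turned from 0.67 to -0.25 with the mean of its 2 probe sets, which disagree. Of 194 called list or named genes, 121 kept their call wherever they were tested, all 30 genes named by size among them, and 73 lost it in at least 1 of 12 settings, most often with only the 4 arrays (56) or without LMPP replicate 2 (52). Leaving out dim genes tested only 154 of the 194, 97 of the 121 and 21 of the 30. Signal near background limits the size of differences, and 2 arrays a group limit the precision.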

Other observations

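The gene families here were picked after their values were seen, and their counts are descriptions. Each count is to be read beside the shares over all genes, 3.54% higher and 3.18% lower in NK. Apart from that of Bex1, the calls of their members were not followed over the alternative settings. Guanylate-binding proteins, interferon gamma-induced GTPases of cell-autonomous defence, were higher in NK for 5 of 10 measured members and lower for none. Gbp4 was 7.45 and 8.19 on the NK arrays and 3.91 and 3.28 on the LMPP arrays (4.23 ± 0.41, limma adjusted p = 1.8e-05). Gbp8, Gbp9, Gbp10 and Gbp7 rose by 3.10, 2.89, 1.58 and 0.98, the last with an adjusted p of 0.049. Gbp5 (0.84), Gbp3 (0.46), Gbp6 (0.30), Gbp2b (-0.08) and Gbp11 (-0.74) did not pass. The genes are close copies, so cross-hybridisation is possible and was not tested. Of 5 synaptotagmin-like genes, which tether Rab27 vesicles, 2 rose, Sytl2 by 4.25 (8.04 and 7.80 against 3.68 and 3.65) and Sytl3 by 3.95 (7.57 and 8.42 against 3.79 and 4.29). Among 11 annexins, which bind membranes in a calcium-dependent way, 3 rose and none fell. Anxa6 rose by 2.20, Anxa2 by 1.74 and Anxa3 by 0.97 (adjusted p = 0.047).

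Genes of transport in the primary cilium held several members that were lower in NK. Of 14 intraflagellar transport genes 4 fell and none rose. Ift74 was 4.07 and 3.97 in NK and 6.15 and 5.79 in LMPP (-1.95 ± 0.22, limma adjusted p = 7.6e-05). Its partner Ift81 was 3.46 and 2.95 against 5.13 and 5.08 (-1.90 ± 0.26). Ift57 fell by 1.86 and Ift22 by 1.15 (adjusted p = 0.028). Of 10 genes of the BBSome, its assembly factors and its regulator, 4 fell and none rose. These were Lztfl1 (-1.72), Ttc8 (-1.06), Bbs2 (-1.05) and Bbs5 (-0.82), the last with an adjusted p of 0.045. The other members did not pass, and several lie near or below the median of all values. Of 5 Bex genes 3 fell, Bex1 by 3.18, Bex6 by 2.42 and Bex3 by 0.73.

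Probe sets of microRNA genes were called for 16 of 478, 8 higher and 8 lower, and at least 2-fold for 3 and 7. That is 3.35% called, 1.67% in each direction, below the 6.72% over all genes. The array reads the RNA around such a gene, not the mature microRNA. The mature 5p sequences of 2 of the lower ones are shown, as those whose values follow, with the seed (bases 2 to 8) in capitals, from RefSeq in build GRCm38.p6.
mmu-miR-181b-5p, chr2:38853845-38853868, strand +: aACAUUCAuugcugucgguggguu
mmu-miR-99a-5p, chr16:77598940-77598961, strand +: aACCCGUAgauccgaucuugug
Mir181b-2 was 5.27 and 4.02 in NK and 8.64 and 7.28 in LMPP (-3.32 ± 0.55, adjusted p = 0.0022). Nr6a1, the protein-coding gene that spans it in RefSeq, had a difference of 0.20 and did not pass. The long noncoding RNA gene Nr6a1os also spans it and was not measured, so its part in the signal is unknown. Mir99a was 3.23 and 3.93 against 6.32 and 6.29 (-2.73 ± 0.55, adjusted p = 0.0078), and no gene was found to span it in RefSeq. Mir99ahg, its host by name only, had a difference of -2.44 and was called too. Of the other called microRNA genes that a RefSeq gene spans, some lay in hosts called in the same direction. Mir5124a (-3.85) lies in Gcnt2 (-2.25), Mir378b (-1.63) in Msi2 (-1.50) and Mir3109 (1.78) in Anxa2 (1.74). For these, the signal of the microRNA gene and of its host cannot be told apart. The hosts of Mir1950 (-2.84, in Kif20b at -0.15), Mir466b-2 (-1.22, in Sfmbt2 at 0.09) and Mir1948 (1.07, in Ttc39c at 0.84) were not called.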
